A study of Homo sapiens with 3 samples.

Results

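The let-7 family precursors are the stem-loop RNAs from which the let-7 microRNAs and miR-98 are cut. Among the windows recovered with DIS3L2, they were taken as every window of the miRNA class whose gene name contained let-7 or was hsa-mir-98. This gave 10 windows in 9 genes, of 29 miRNA windows and of 1533 windows in all. The rule used names alone and no measured value. The study describes the listed windows as already selected for read number and uridylation, so windows with few reads or few tails can be missing. The data came from CLIP (crosslinking and immunoprecipitation, which recovers RNA bound to a chosen protein) of the DIS3L2 D391N mutant, overexpressed in HEK293, a human embryonic kidney line, as the labels name it, and given as HEK293T-Rex in the study's text. D391N is a catalytically inactive form of the exoribonuclease DIS3L2, stably integrated into the cells. The 3 replicate libraries formed 1 group and shared the line, the transgene and the protocol, and the table used here had no control group. Each window spans 50 nt of GRCh37/hg19 and has a count of uniquely mapped reads and a count of U+ reads. By the study's text, U+ reads finish in more than 3 T absent from the genomic sequence. Reads said below to have no tail are all other unique reads, so they can include reads with a shorter tail. The authors had summed both counts over the 3 libraries, so the spread between replicates is unknown, no replicate SD is given, and no difference below was tested against replicate error.

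Let-7 microRNAs repress growth-promoting genes and promote differentiation. Their precursors are cut from longer transcripts by DROSHA, exported, and cut again by DICER1. The RNA-binding protein LIN28 holds the precursor and recruits the terminal uridylyltransferases TUT4 and TUT7, which add an oligo(U) tail, and DIS3L2 degrades the tailed precursor. The U+ fraction, the U+ reads divided by all unique reads of a window, is the share of recovered fragments with a tail long enough to count as U+. It measures what the protein held, not how many precursors a cell contained.

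The mature strands of the 5p arm are shown first, since they define the family. Bases 2 to 8, the seed that pairs with target RNAs, are in capitals. Sequences are from the RefSeq table of the GRCh38 assembly, which held all 9 genes with a window, and each hairpin was found once, base for base, on its GRCh37 chromosome.
hsa-let-7a-5p: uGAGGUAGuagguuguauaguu
hsa-let-7b-5p: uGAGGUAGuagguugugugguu
hsa-let-7d-5p: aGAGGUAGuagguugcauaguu
hsa-let-7e-5p: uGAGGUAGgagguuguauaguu
hsa-let-7f-5p: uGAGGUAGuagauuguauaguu
hsa-let-7g-5p: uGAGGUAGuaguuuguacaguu
hsa-let-7i-5p: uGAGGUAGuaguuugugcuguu
hsa-miR-98-5p: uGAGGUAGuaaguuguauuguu

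All 12 family genes of the RefSeq table, the 9 with a window and hsa-let-7a-2, hsa-let-7a-3 and hsa-let-7c, share the seed GAGGUAG. They encode 9 distinct 5p strands. hsa-let-7f-1 and hsa-let-7f-2 encode the same 5p strand, as do the 3 let-7a genes, and let-7a and let-7f differ by 1 base of 22. The most distant pair, let-7d and let-7i, differ by 6. The hairpins of 3 genes show how differently the windows fall, as described below. In each, the capitals mark the bases inside the 50-nt window.
hsa-let-7f-1: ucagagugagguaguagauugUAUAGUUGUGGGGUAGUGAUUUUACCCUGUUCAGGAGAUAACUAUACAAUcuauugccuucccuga
hsa-let-7a-1: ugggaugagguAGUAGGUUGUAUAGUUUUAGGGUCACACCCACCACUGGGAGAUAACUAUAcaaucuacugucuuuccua
hsa-let-7g: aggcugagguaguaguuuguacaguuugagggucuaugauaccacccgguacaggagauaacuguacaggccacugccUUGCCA

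Of the 10 windows, 8 had a U+ fraction between 68.8 and 94.8%, and 2 were far lower. hsa-let-7b and hsa-let-7f-1 stood at the top, 5 further genes and the main hsa-mir-98 window formed a middle group, and hsa-let-7a-1 and the outer hsa-mir-98 window were at the bottom. The intervals given are 95% Wilson intervals. They describe the error of counting and nothing else, and they are too narrow where several reads are PCR copies of the same molecule.

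hsa-let-7b lies in an exon of the long non-coding RNA MIRLET7BHG, and its window is chr22:46509600-46509649 on the plus strand. It had 7084 unique reads, of which 6713 were U+ and 371 were not, a U+ fraction of 94.8% (interval 94.2 to 95.3%). hsa-let-7f-1 lies in an exon of the long non-coding RNA MIRLET7A1HG at chr9:96938650-96938699 on the plus strand. It had the most reads of the family, 25275 unique reads with 23376 U+, or 92.5% (interval 92.2 to 92.8%). These windows were thus almost entirely made of tailed fragments, and hsa-let-7b exceeded hsa-let-7f-1 by 2.28 percentage points (Newcombe interval of the difference 1.65 to 2.87).

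The middle group began with hsa-let-7e at chr19:52196050-52196099 on the plus strand, within the gene SPACA6 and opposite an exon of its antisense RNA SPACA6-AS1. It had 255 U+ reads among 328, or 77.7% (interval 72.9 to 81.9%). hsa-let-7d, at chr9:96941150-96941199 on the plus strand in an exon of MIRLET7A1HG and opposite MIRLET7DHG, had 1123 U+ reads among 1463, or 76.8% (interval 74.5 to 78.9%). hsa-let-7f-2, at chrX:53584150-53584199 on the minus strand in an intron of HUWE1, had 576 among 758, or 76.0% (interval 72.8 to 78.9%). All 3 had fewer reads than hsa-let-7i and hsa-let-7g, described next, and wider intervals. hsa-let-7i, at chr12:62997500-62997549 on the plus strand and inside its host MIRLET7IHG, had 6697 U+ reads among 9174, or 73.0% (interval 72.1 to 73.9%). hsa-let-7g, at chr3:52302250-52302299 on the minus strand in an intron of WDR82, had 9967 among 13668, or 72.9% (interval 72.2 to 73.7%). The deep windows of hsa-let-7i and hsa-let-7g differed by 0.0776 points, with an interval of -1.10 to 1.25 points.

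hsa-mir-98 was the only member with more than 1 window, and it lies in an intron of HUWE1 on the minus strand of chromosome X. The window that holds the end of its 3p arm, chrX:53583200-53583249, had 7202 U+ reads among 10468, or 68.8% (interval 67.9 to 69.7%). The adjoining window further downstream, chrX:53583150-53583199, had 63 U+ reads among 2909, or 2.17% (interval 1.70 to 2.76%). Moving from the first to the second, the unique reads were 3.60-fold fewer and the U+ reads 114.3-fold fewer. Nearly all of the 2909 reads counted in the window past the 3p end were therefore not U+. How a read that spans both windows was counted is not given in the sources used here.

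hsa-let-7a-1, at chr9:96938250-96938299 on the plus strand and in an exon of MIRLET7A1HG, was the member with the fewest reads. It had 26 U+ reads among 99, or 26.3% (interval 18.6 to 35.7%). hsa-let-7a-1, hsa-let-7f-1 and hsa-let-7d lie in the same host gene, and their windows had 99, 25275 and 1463 unique reads. hsa-let-7f-1 thus had 255.3 times the reads of hsa-let-7a-1.

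**Figure D1:**
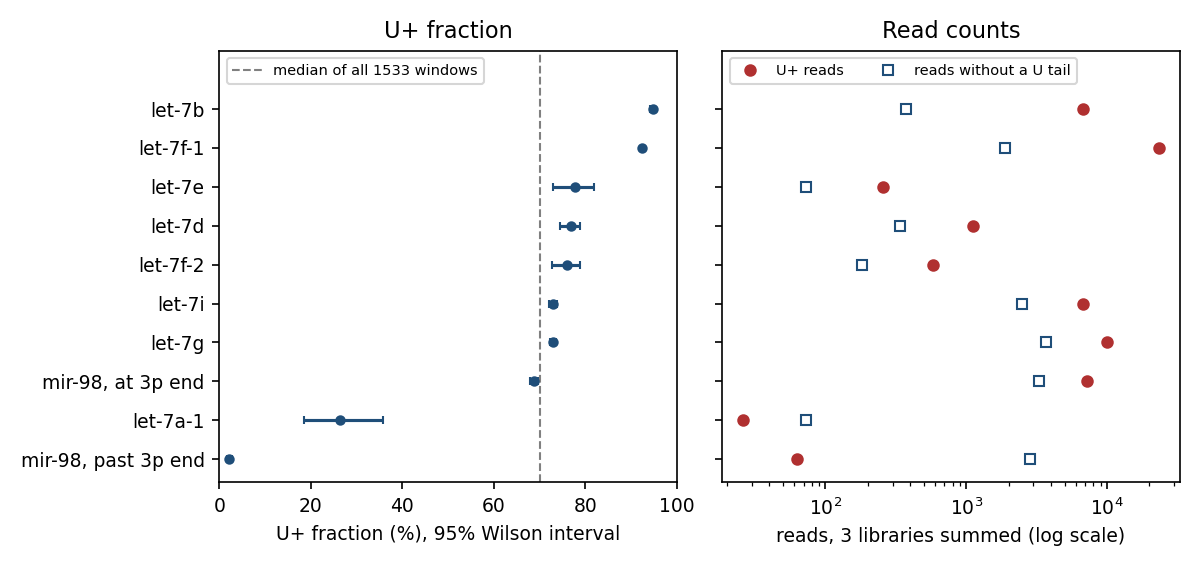
U+ fraction in percent with its 95% Wilson interval (left) and the number of U+ reads and of reads without a U tail on a log scale (right), for each of the 10 let-7 family windows, summed over 3 libraries. The dashed line is the median of all windows, 70.2%; hsa-let-7b and hsa-let-7f-1 lie highest, and hsa-let-7a-1 and the outer hsa-mir-98 window are those with fewer U+ reads than reads without a tail.

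In the order of U+ fractions, 5 of 9 neighbouring windows were separated by the interval of their difference. The steps were from hsa-let-7b to hsa-let-7f-1, from hsa-let-7f-1 to hsa-let-7e (14.7 points, 10.6 to 19.6), from hsa-let-7g to the main hsa-mir-98 window (4.12 points, 2.96 to 5.28), from there to hsa-let-7a-1 (42.5 points, 33.1 to 50.3) and from hsa-let-7a-1 to the outer hsa-mir-98 window (24.1 points, 16.4 to 33.5). The neighbours hsa-let-7e and hsa-let-7d, hsa-let-7d and hsa-let-7f-2, hsa-let-7f-2 and hsa-let-7i, and hsa-let-7i and hsa-let-7g were not separated. Over all 45 pairs of windows, 37 were separated and 8 were not, each of the 8 being among hsa-let-7e, hsa-let-7d, hsa-let-7f-2, hsa-let-7i and hsa-let-7g. The intervals were not widened for the number of pairs.

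Against the median of all windows, 70.2%, the interval of 7 let-7 windows lay above and that of 3 lay below. Across the table, 22.8% of windows lay above by this rule and 31.1% below, and deep windows are placed on either side more readily than shallow ones. The main hsa-mir-98 window lay just under the median and its side depended on the reference. Against the median of the windows with at least 100 unique reads, 60.9%, it lay above. With both counts divided by 10, to allow for copies of the same molecule, 3 let-7 windows lay above, namely hsa-let-7b, hsa-let-7f-1 and hsa-let-7g.

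By the study's text, the authors selected windows with a high posterior probability that the uridylation frequency exceeded 0.25. Recomputed from the summed counts, this probability reached 0.95 for 8 of the 10 let-7 windows, beside 96.8% of all windows. The exceptions were hsa-let-7a-1, at 0.642, and the outer hsa-mir-98 window, whose interval of 1.70 to 2.76% lies wholly under 25%. Both are in the deposited table all the same. The study multiplied the probabilities of the single libraries, whose counts were not used here. At a pooled fraction of 2.17%, at least 1 library was at or under that value. No split of the counts over libraries would therefore let the outer hsa-mir-98 window reach 0.95 by that rule. Why both windows are listed is not known here.

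Reads were spread unevenly over the genes. With 1 window per gene, the family had 55935 U+ reads, of which hsa-let-7f-1 held 41.8%, hsa-let-7g 17.8%, hsa-mir-98 12.9%, and hsa-let-7b and hsa-let-7i 12.0% each. These 5 genes together held 96.5%. hsa-let-7d followed with 2.01%, hsa-let-7f-2 with 1.03%, hsa-let-7e with 0.456% and hsa-let-7a-1 with 0.0465%. The gene with the most U+ reads had 899.1 times those of the gene with the fewest.

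The reads without a tail were shared out differently. hsa-let-7g held 29.9% of the 12382 such reads, hsa-mir-98 26.4%, hsa-let-7i 20%, hsa-let-7f-1 15.3% and hsa-let-7b 3.00%. hsa-let-7b and hsa-let-7i therefore had nearly the same number of U+ reads, 6713 and 6697, while their reads without a tail were 371 and 2477. Among all 1533 windows, ranked by U+ reads, hsa-let-7f-1 was 6th, hsa-let-7g 11th, hsa-mir-98 15th, hsa-let-7b 18th and hsa-let-7i 19th.

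The windows did not fall on the same stretch of each hairpin. Window borders follow a fixed grid on the genome, so what each covers is a matter of position. Of the 10 windows, 6 hold the 3′ end of the 3p arm or, for hsa-let-7f-2, whose 3p arm is not in the RefSeq table, the end of the hairpin. Their U+ fractions ran from 68.8 to 94.8%. The windows of hsa-let-7b, hsa-let-7d, hsa-let-7i and the main window of hsa-mir-98 contain the whole 22-nt 3p arm. hsa-let-7g, whose window reaches 44 nt past the hairpin, contains only the last 4 nt of its 3p arm and had 13668 unique reads. By which of its bases a read is assigned to a window is not given in the sources used here. The bases of a window thus need not be those of its reads or the place of their tails.

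The windows of hsa-let-7f-1, hsa-let-7e and hsa-let-7a-1 stop 13, 13 and 16 nt short of the 3′ end of the 3p arm. Their U+ fractions were 92.5, 77.7 and 26.3%, so these windows included the second highest and the second lowest of the family. All 3 are on the plus strand, while the hsa-let-7g window and the outer hsa-mir-98 window are on the minus strand. Whether this follows from how reads were assigned was not tested. As seen in the hairpins above, the window of hsa-let-7f-1 covers the last 7 nt of its 5p arm, the whole 34-nt segment between the arms and the first 9 nt of its 3p arm. The outer hsa-mir-98 window begins 3 nt past the 3p end and holds 16 nt of the hairpin and 34 nt beyond it. Whether the table counts starts from 0 or from 1 is not stated, and 5 windows hold the annotated 3p end either way.

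**Figure D2:**
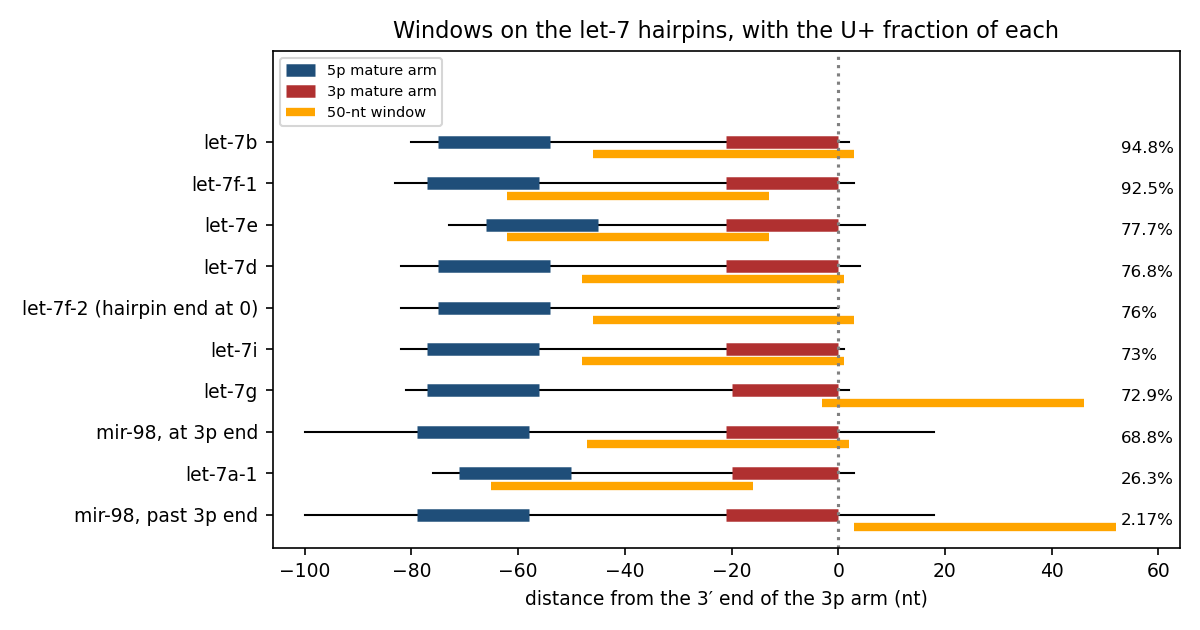
Position of each 50-nt window (orange) on its hairpin (black line, with the 5p mature arm in blue and the 3p mature arm in red), in nt from the 3′ end of the 3p arm, or from the hairpin end for hsa-let-7f-2. The percentages are U+ fractions. The window lying wholly past the 3p end, on hsa-mir-98, has 2.17%. The 3 windows that stop before that end, all on the plus strand, have 92.5, 77.7 and 26.3%. The bases of a window need not be those of its reads.

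A U tail can be told from genomic sequence only where the genome does not itself encode T. Directly past the 3p arm the genome encodes at most 1 T in the 8 listed genes with an annotated 3p arm, and the longest T run in the next 10 nt is 2. The segments between the arms differ more, as shown for 7 genes with a window and an annotated 3p arm. Capitals mark GGAG, UGAU and GGAU, tetramers of the kind that LIN28 is known to contact.
hsa-let-7f-1: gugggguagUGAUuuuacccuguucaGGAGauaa
hsa-let-7g: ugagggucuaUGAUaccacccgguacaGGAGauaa
hsa-let-7i: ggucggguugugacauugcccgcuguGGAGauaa
hsa-let-7b: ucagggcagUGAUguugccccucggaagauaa
hsa-let-7d: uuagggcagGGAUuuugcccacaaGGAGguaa
hsa-let-7e: gaGGAGgacacccaaGGAGauca
hsa-let-7a-1: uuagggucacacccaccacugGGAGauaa

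The 6 genes with over 1000 unique reads in a window have segments of 32 to 36 nt. The other 5 genes with a known segment, which are hsa-let-7e and hsa-let-7a-1 and the unlisted hsa-let-7a-2, hsa-let-7a-3 and hsa-let-7c, have segments of 23 to 29 nt. The bound of 1000 reads was chosen after the counts had been seen, and the split is a description. GGAG occurs in 9 of the 12 family segments, read on the RNA strand only, beside 8.14% of the 737 human hairpins of the table with both arms annotated and 27.4% of the 62 among them with a segment of 23 to 36 nt. Both of these background sets include the family's own segments with both arms annotated, which raises the shares. For hsa-let-7f-2 the search ran from the 5p arm to the hairpin end.

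UGAU occurs in hsa-let-7f-1, hsa-let-7g and hsa-let-7b, and GGAU in 3 of the 12 family genes, hsa-let-7d and hsa-let-7a-3 among them. UGAU is in 8.68% of all segments and 11.3% of those of like length, and GGAU in 3.93 and 9.68%, again with the family's own segments included. hsa-let-7i, with 9174 unique reads, has neither tetramer, and hsa-let-7a-3, which has GGAU, has no window. Only these exact tetramers and GGAG were searched, so other sequences that LIN28 may contact would not be seen. hsa-let-7b, the member with the highest U+ fraction, lacks GGAG. A match is a description of the letters and not a measured binding site.

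**Figure D3:**
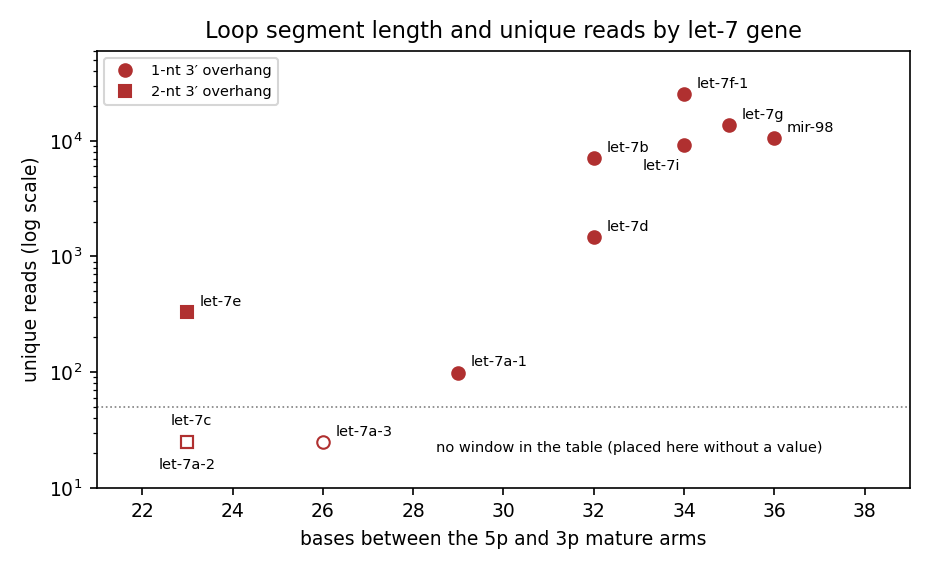
Unique reads of each let-7 gene (log scale, 1 window per gene, 3 libraries summed) against the number of bases between its 5p and 3p mature arms; circles are precursors with a 1-nt and squares with a 2-nt 3′ overhang, and open symbols below the dotted line are genes with no window, placed there without a value. The 6 genes with over 1000 unique reads have segments of 32 to 36 nt; hsa-let-7f-2, whose 3p arm is not in the table of sequences, is not drawn.

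Most let-7 precursors are known from the literature to leave DROSHA with a 1-nt 3′ overhang, while let-7a-2, let-7c and let-7e have the usual 2-nt overhang. The 1-nt form is the one that TUT enzymes extend by 1 uridine ahead of DICER1. A tail of 1 uridine is too short to count as U+, so the U+ fraction does not measure that reaction. Of the 9 genes with a 1-nt overhang, 8 had a window, and their pooled U+ fraction was 81.9% with 1 window per gene. This leaves out the outer hsa-mir-98 window, with 63 U+ reads among 2909. Over all 10 windows of the family, with that window included, the pooled value was 78.6%. Of the 3 genes with a 2-nt overhang, hsa-let-7e alone had a window, with 328 unique reads and a U+ fraction of 77.7%. The 1-nt genes ranged from 26.3 to 94.8% in their window with the most reads, and hsa-let-7e lay within that range. With 1 gene in the 2-nt group, no comparison of the groups was possible. A gene without a window may have had reads below the authors' limits, and its level is not known.

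Reads that map to several places were not in the counts, and the family's copies are similar. The mature strand of let-7a-5p occurs at 3 places in the genome, let-7a-3p and let-7f-5p at 2 each, and every other arm at 1. Of the 24-nt words of a hairpin, 91.2% were found once in the genome for hsa-let-7a-1 and 90.2% for hsa-let-7a-3, and 100% for each other family gene. Of the 18-nt words, 49.2% were found once for hsa-let-7a-1, 74.2% for hsa-let-7f-2 and 85.7% for hsa-let-7f-1. Among the genes with a window, hsa-let-7a-1 thus had both the fewest reads and the lowest share of words found once, at 24 and at 18 nt. The part of shared sequence in the read counts was not tested. hsa-let-7f-1 and hsa-let-7f-2, which share their 5p strand, differed 33.3-fold in unique reads.

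Set beside the 19 other miRNA windows, from 18 genes, the let-7 windows were much deeper. Their median was 4996.5 unique reads, against 63. The let-7 family held 34.5% of the miRNA windows, 90.8% of their unique reads and 91.7% of their U+ reads (interval 91.5 to 91.9%), and 86.6% of the U+ reads with hsa-let-7f-1 left out of both counts. Its pooled U+ fraction was 78.6% (interval 78.3 to 78.9%) and its median 74.5%, against 70.3 and 70.2% for the other miRNA windows. Without hsa-let-7f-1 the pooled value of the family was 71.0%. Among the other miRNA windows, 5 lay above the median of all windows, 1 below and 13 were not separated from it. The deepest of them, hsa-mir-320a, had 1837 U+ reads among 2456, or 74.8% (interval 73.0 to 76.5%), and hsa-mir-484 had 1666 among 2386, or 69.8% (interval 68.0 to 71.6%), within the range of the middle let-7 group.

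Deep windows elsewhere in the table, all classes together, had a lower median U+ fraction. Among windows with at least 1000 unique reads, a minimum chosen after the data had been seen, the 7 let-7 windows had a median of 73.0% and the 96 windows outside the family one of 44.9%. Those 96 ranged from 0.719 to 97%, and 19 of them lay above the median of all windows. Among the 96, hsa-mir-320a had 74.8% and hsa-mir-484 69.8%, so a high fraction at this depth was not particular to let-7. With at least 5000 unique reads, the medians were 73.0% over 5 let-7 windows and 29.5% over 28 others. Of the 103 windows with at least 1000 unique reads, ranked by U+ fraction, hsa-let-7b was 4th, hsa-let-7f-1 6th, hsa-let-7d 18th, hsa-let-7i 23rd, hsa-let-7g 24th and the hsa-mir-98 windows 27th and 100th. Windows are not replicates and share their libraries, so these ranks are a description.

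**Figure D4:**
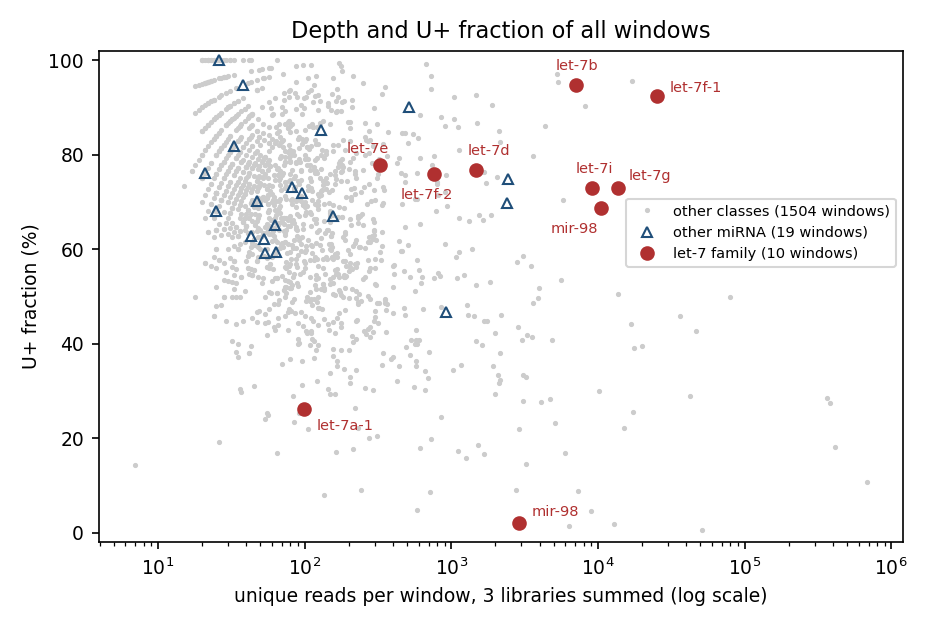
Unique reads (log scale) and U+ fraction in percent of all 1533 windows, summed over 3 libraries, with the 10 let-7 family windows in red, the 19 other miRNA windows as triangles and all other classes in grey. The let-7 windows with over 5000 unique reads lie between 68.8 and 94.8%. The 28 other windows of that depth, all classes together, have a median of 29.5% and range from 0.719 to 97%.

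Genes that make, tail, degrade or answer to let-7 were looked up in the same table, and 4 of 27 had a window, of which 3 are described. None of LIN28A and LIN28B, the uridylyltransferase genes TUT4, TUT7 and TENT2, DIS3L2 itself or the processing genes DROSHA, DGCR8 and DICER1 had one. The windows carry 1353 gene names in all, and the share of all annotated genes with a window was not computed. The count of 4 of 27 is therefore a listing, and nothing is concluded from it about these genes. Of the known let-7 targets, MYC, a growth-promoting transcription factor, had 172 U+ reads among 556, or 30.9% (interval 27.2 to 34.9%). IGF2BP1, an mRNA-binding protein, had 15 among 34, or 44.1% (interval 28.9 to 60.5%). WDR82, the host gene of hsa-let-7g, had a window elsewhere in the gene with 14 U+ reads among 28, or 50% (interval 32.6 to 67.4%), beside 13668 reads in the let-7g window. No window of a gene outside the family lay within 5000 nt of a let-7 window. The family's own windows were left out of this search, and some lie closer to each other, such as those of hsa-let-7a-1 and hsa-let-7f-1.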

How the data were processed

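CLIP libraries (3) were made from HEK293 cells (HEK293T-Rex in the study's text) overexpressing the D391N mutant of DIS3L2. Reads were mapped by the authors to hg19, those that failed to map were trimmed of 3′ T runs and mapped again, and uniquely mapped reads were counted in 50-nt windows. The study's text names Segemehl for the mapping, while the submitters' processing notes name Subread. The deposited table holds raw counts of unique and of uridylated reads per window, which the authors had added up across libraries without scaling. The total of 2686158 unique reads is thus the only depth, and it covers the listed windows alone. Its columns with the authors' own frequency estimate and posterior were not used. Such a selection favours windows with tails, and the RNase used in CLIP sets fragment ends.

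U+ fractions were given 95% Wilson intervals (statsmodels 0.14.6) and differences Newcombe intervals. The script that places an interval above or below the median was checked on counts simulated at the depths of the table. The posterior used a uniform prior (scipy 1.17.1). Hairpins from RefSeq were matched to GRCh37, and host genes came from GENCODE release 44 mapped to it. Word counts covered both strands of the genome. Overhang classes are from the literature. Members, gene lists and thresholds were chosen with earlier results of these data known. The text names all members, the 2 other miRNA windows with the most unique reads, listed pathway genes with a window, and windows within 5000 nt. A pathway gene and a sequence are not reported here. No significance test was run, since 1 pooled group has no replicates. The alternatives were the exact interval, counts divided by 10, other references, other limits of the posterior, 1 window per gene, and other word lengths.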

Additional observations from a re-analysis of the deposited data

How the results depend on the processing

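Of the 49 interval calls of single windows under the alternatives listed above, 40 kept their side of the reference, 8 became not separated and 1 changed side. The exception was the main hsa-mir-98 window, at 68.8%, against the median of windows with at least 100 unique reads. The number of let-7 windows above the reference was 7, and it was 3 with both counts divided by 10 and 4 against the median of all miRNA windows, 72.9%. The pooled U+ fraction of 78.6% became 71.0% without hsa-let-7f-1 and 81.9% with 1 window per gene. The median of 74.5% became 76.0% with 1 window per gene and also with at least 100 unique reads, because the outer hsa-mir-98 window or hsa-let-7a-1 is left out. The let-7 share of U+ reads in the miRNA class, 91.7%, was 86.6% without hsa-let-7f-1, 90.8% of unique reads and 34.5% of windows. Words found once in the genome, over the 12 hairpins, made up 98.6% at 24 nt, 84.1% at 18 nt and 100% at 30 nt. The minimum of 5000 unique reads, chosen after seeing the data, moved the median outside the family from 44.9 to 29.5%. The exact interval, a posterior of 0.99, a frequency of 0.5 and starts counted from 0 changed no call or count. No paired analysis was possible because the authors summed the 3 libraries of 1 group, and leaving out 1 library was not possible for the same reason. At 99 reads, the hsa-let-7a-1 interval spans 18.6 to 35.7%.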
